A study of Mus musculus with 4 samples.

Results

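The 9 genes studied were grouped as genes of the thick ascending limb of the loop of Henle and the distal tubule. They were followed in the kidneys of lupus-like mice: Umod, Slc12a1, Slc12a3, Kcnj1, Bsnd, Egf, Trpm6, Pvalb and the broadly expressed Wnk1. The members were given by name, all 9 were found among the 54532 genes counted, and all 9 passed the low-count filter that left 14908 genes for testing. The question was whether these genes differed between pristane-injected wild-type (WT) kidneys and pristane-injected kidneys lacking Zbp1 (Zbp1-KO). The 9 genes were present in every library, none of them passed the test between genotypes, which 0.0134% of all tested genes did. The larger of the library gaps within WT and within Zbp1-KO exceeded the genotype difference for 8 of them, as it did for 79.1% of all tested genes. Pvalb was the exception in its ranges, with both Zbp1-KO libraries below both WT libraries, as for 16.3% of all tested genes, and it did not pass the test either.

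The series held 4 whole-kidney polyA RNA libraries, 2 per genotype. The study describes female C57BL/6J mice that were 8 weeks old when given 500 µL pristane by intraperitoneal injection, with kidneys taken 8 months later, and a Zbp1-/- line in which CRISPR-Cas9 removed exon 2 to exon 8. Pristane is an oil that provokes a lupus-like autoimmune disease, and the product of Zbp1 senses nucleic acids in the Z form. Every mouse had received pristane, so the values compare genotypes within the disease model and say nothing of the effect of pristane itself. Nothing in the labels says how the 2 libraries of a genotype were drawn, so p-values measure only the spread between them.

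The thick ascending limb reabsorbs salt without water, and the distal convoluted tubule that follows it sets the final sodium chloride and magnesium balance. In the thick ascending limb, the cotransporter encoded by Slc12a1 (NKCC2, the target of loop diuretics) takes up sodium, potassium and chloride, the potassium channel encoded by Kcnj1 (ROMK) returns potassium to the lumen, and chloride leaves through basolateral channels that need the subunit encoded by Bsnd (barttin). Umod encodes uromodulin, the most abundant protein of normal urine, made by the same cells. In the distal convoluted tubule, Slc12a3 encodes the thiazide-sensitive cotransporter NCC, Trpm6 a magnesium channel, Pvalb the calcium-binding protein parvalbumin, and Egf the precursor of epidermal growth factor, which is also made in the thick ascending limb. Wnk1 encodes a kinase that, through SPAK and OSR1, controls both cotransporters, and it is expressed in many cell types.

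On the GRCm38 assembly with GENCODE M21, the genes lie on 9 different chromosomes. In the thick ascending limb group, Umod (ENSMUSG00000030963) lies on chromosome 7 from 119462711 to 119479282, minus strand. Slc12a1 (ENSMUSG00000027202) lies on chromosome 2 from 125152505 to 125230002, plus strand. Kcnj1 (ENSMUSG00000041248) lies on chromosome 9 from 32372493 to 32399197, plus strand, and Bsnd (ENSMUSG00000025418) on chromosome 4 from 106483456 to 106492283, minus strand. In the distal group, Slc12a3 (ENSMUSG00000031766) lies on chromosome 8 from 94329201 to 94366214, plus strand. Trpm6 (ENSMUSG00000024727) lies on chromosome 19 from 18749983 to 18892511, plus strand, and Pvalb (ENSMUSG00000005716) on chromosome 15 from 78191114 to 78206400, minus strand. Egf (ENSMUSG00000028017) lies on chromosome 3 from 129677565 to 129755316, minus strand, and Wnk1 (ENSMUSG00000045962) on chromosome 6 from 119923969 to 120038672, minus strand. Antisense genes overlap exons of Umod (Gm44588) and of Egf (6330410L21Rik and Gm42697). Gm44588 had 0 counts in all 4 libraries, 6330410L21Rik had 13 to 51 and Gm42697 had 0 to 27, against at least 3083 for Egf. Whether counting used the strand is not given in the sources used here, so reads of such pairs cannot be told apart.

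RefSeq sequence upstream of the start was at hand for 8 of the 9 members, without Bsnd. The 250 bases before the start are shown for Umod and Slc12a3, as 1 gene of each segment, because these were the members whose window held any of the motifs searched. The motifs were GTTAAT (a core site of HNF1, a factor that tubule cells use), TNAAGGTCA (a site of estrogen-related receptors) and TATAAA (the TATA box), read on both strands. Matches are in capitals, and both sequences run 5′ to 3′ on the strand of the gene, for Umod chr7:119479263-119479512 (minus) and for Slc12a3 chr8:94328958-94329207 (plus), both in GRCm38.p6.
Umod: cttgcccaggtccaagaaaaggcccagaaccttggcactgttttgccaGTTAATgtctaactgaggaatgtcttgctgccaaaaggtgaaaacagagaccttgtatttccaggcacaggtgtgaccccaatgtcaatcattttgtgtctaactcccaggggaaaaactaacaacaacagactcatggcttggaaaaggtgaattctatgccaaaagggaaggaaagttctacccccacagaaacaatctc
Slc12a3: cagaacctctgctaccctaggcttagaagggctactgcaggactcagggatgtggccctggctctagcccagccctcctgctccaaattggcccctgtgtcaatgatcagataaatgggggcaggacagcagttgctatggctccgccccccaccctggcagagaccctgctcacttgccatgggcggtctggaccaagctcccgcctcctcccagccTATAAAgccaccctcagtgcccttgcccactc
The capitals in Umod are 1 HNF1 core site, which 6.43% of all 32851 such windows in the table hold. Those in Slc12a3 are 1 TATA box, held by 12.4% of the windows. The estrogen-related receptor site was in no window of a member and in 1.14% of all windows. A match or its lack describes these letters only.

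Total counts were 9878776 to 12921925 per library, of which 49.5% to 61.5% fell on mitochondrially encoded genes and 4003417 to 5782924 on all others. The 9 members took 0.498% and 0.543% of the non-mitochondrial counts in WT, against 0.603% and 0.494% in Zbp1-KO. The targeted gene Zbp1 had 94 and 125 counts in the WT pair, against 18 and 0 in Zbp1-KO, so the labels matched its level. A count of 0 was read as up to 3 counts, or 0.221 to 0.323 CPM (counts scaled to library size with TMM factors). This limit covers counting error only, while the intervals given for fold changes come from the edgeR fit and include the spread between libraries.

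The levels of the members differed widely. Compared per kilobase of annotated exon (CPM per kb, mean of 4 libraries), Slc12a1 was at 105, Umod at 95.5 and Slc12a3 at 61.1, above at least 97.5% of all tested genes. Egf followed at 34.2, Kcnj1 at 29.7 and Bsnd at 22.9, then Pvalb at 12.2, Wnk1 at 7.24 and Trpm6 at 2.06. Per kb, Pvalb was above 86.0% of all tested genes, Wnk1 above 76.5% and Trpm6 above only 41.7%. Slc12a3, Bsnd, Pvalb, Wnk1 and Trpm6 held the same place in this order in all 4 libraries. Slc12a1 and Umod changed places between libraries, with ranges of 79.8 to 132 and 74.2 to 138 CPM per kb, and so did Egf (29.5 to 38.6) and Kcnj1 (25.9 to 31.8). Kcnj1 also overlapped its lower neighbour Bsnd (19.3 to 27.8). The annotated exon length includes minor transcripts, 11119 bases for Slc12a3, 11275 for Egf and 22825 for Wnk1, which lowers the per-length values of those genes.

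The transport genes of the thick ascending limb did not separate the genotypes. Slc12a1 measured 707 and 459.9 CPM in the WT pair, against 763 and 495 CPM in Zbp1-KO. WT 1 and Zbp1-KO 1 were the high libraries and WT 2 and Zbp1-KO 2 the low ones, so the groups overlapped. The means were 583 ± 175 in WT and 629 ± 189.5 in Zbp1-KO (mean ± SD, n = 2 libraries), and the log2 fold change of Zbp1-KO over WT was 0.11 ± 0.25 (SE), with an edgeR adjusted p of 0.999 and a 95% interval of −0.44 to 0.65. It became −0.17 without WT 2 and −0.24 without Zbp1-KO 1. In bulk tissue, fewer cells of a segment and less RNA per cell cannot be told apart.

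Kcnj1, the luminal potassium channel, differed by at most 0.25 (log2) between libraries of 1 genotype. It measured 103 and 86.4 CPM in the WT pair, against 106 and 101 CPM in Zbp1-KO. Its ranges overlapped by 1 library, WT 1, and its log2 fold change was 0.13 ± 0.19 (SE; edgeR adjusted p = 0.999; 95% interval −0.28 to 0.53), and 0.0013 without WT 2. Bsnd, the chloride channel subunit, measured 59.9 and 62.5 CPM in the WT pair, against 76.6 and 53.1 CPM in Zbp1-KO. The Zbp1-KO libraries lay on either side of both WT libraries, and the log2 fold change of 0.086 ± 0.21 (SE; edgeR adjusted p = 0.999; 95% interval −0.38 to 0.55) became −0.21 without Zbp1-KO 1.

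Umod, the secreted product of the same cells, measured 244 and 223 CPM in the WT pair, against 383 and 205 CPM in Zbp1-KO. Zbp1-KO 1 stood above the other libraries, and Zbp1-KO 2 was the lowest of the 4. The mean was 234 ± 14.9 in WT and 294 ± 126 in Zbp1-KO (mean ± SD, n = 2 libraries), and the log2 fold change was 0.33 ± 0.25 (SE; edgeR adjusted p = 0.999; 95% interval −0.22 to 0.88). Without Zbp1-KO 1 it was −0.20, and without Zbp1-KO 2 it was 0.70, so its sign rested on 1 library.

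Among the genes of the distal convoluted tubule, the cotransporter Slc12a3 ran opposite to Slc12a1 within each genotype. It measured 495 and 823 CPM in the WT pair, against 652 and 749 CPM in Zbp1-KO. WT 1 was the lowest library and WT 2 the highest, with both Zbp1-KO libraries between them. The means were 659 ± 232 in WT and 701 ± 68.1 in Zbp1-KO (mean ± SD, n = 2 libraries), with a log2 fold change of 0.088 ± 0.23 (SE; edgeR adjusted p = 0.999; 95% interval −0.42 to 0.60), which became −0.24 without WT 1 and −0.022 without Zbp1-KO 2.

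The ratio of Slc12a1 to Slc12a3, taken from CPM and compared only between libraries, was 1.43 in WT 1 and 0.559 in WT 2, and 1.17 in Zbp1-KO 1 and 0.661 in Zbp1-KO 2. Both Zbp1-KO ratios lay between the WT ratios, and the log2 ratio differed by −0.023 between them (exact two-sided permutation p = 1 over 4 libraries). With 2 libraries against 2, this test cannot give a p below 0.333.

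Pvalb, which in kidney marks the early distal convoluted tubule, was the 1 member whose groups did not overlap. It measured 13.0 and 18.3 CPM in the WT pair, against 9.07 and 10.2 CPM in Zbp1-KO, from 162 and 214 counts and from 123 and 95 counts. Both Zbp1-KO libraries lay below both WT libraries, with means of 9.65 ± 0.823 and 15.7 ± 3.73 (mean ± SD, n = 2 libraries). The log2 fold change was −0.70 ± 0.32 (SE; 95% interval −1.39 to −0.0055), with an unadjusted p of 0.0485 in edgeR (adjusted p = 0.999), so Pvalb was not called. Its log2 fold change stayed between −0.93 and −0.44 with any 1 library left out. With all 4 libraries, however, its unadjusted p exceeded 0.05 in the edgeR exact test, DESeq2 and limma-voom. Of all tested genes, 16.3% had both Zbp1-KO libraries below both WT libraries, 16.0% had both above, and 3.88% had an unadjusted p under 0.05, against which 1 of 9 members is no departure that these data can show.

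Set against Slc12a3, Pvalb had a ratio of CPM of 0.0263 and 0.0222 in WT and of 0.0139 and 0.0137 in Zbp1-KO. These ranges did not overlap, and the exact two-sided permutation p of 0.333 is the smallest possible. The same ratio for Trpm6 was 0.0309 and 0.0264 in WT, against 0.0277 and 0.0114 in Zbp1-KO, and these ranges overlapped (exact two-sided permutation p = 0.667). Skeletal muscle also makes parvalbumin, so 8 muscle genes were examined. Acta1, Ckm, Myh4 and Tnnc2 had 0 counts in every library, Tnnt3 had 0 to 3 counts and Atp2a1 0 to 12, while Mylpf had 6 to 36 and Tnni2 had 2 to 31, both highest in Zbp1-KO 1. The summed level of the 8 genes was 1.93 and 2.05 CPM in the WT pair, against 5.38 and 2.15 CPM in Zbp1-KO. The part of muscle RNA in the level of Pvalb was not tested.

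Trpm6, the magnesium channel, was the member with the lowest level per length, and it measured 15.3 and 21.7 CPM in the WT pair, against 18.1 and 8.51 CPM in Zbp1-KO. Zbp1-KO 2, with 79 counts, was low and Zbp1-KO 1 lay between the WT libraries. The log2 fold change of −0.46 ± 0.36 (SE; edgeR adjusted p = 0.999; 95% interval −1.25 to 0.32) ran from −1.13 without Zbp1-KO 1 to −0.041 without Zbp1-KO 2. Egf, a growth factor precursor that distal cells shed into urine, measured 363 and 435 CPM in the WT pair, against 412 and 332 CPM in Zbp1-KO. Its ranges overlapped, and its log2 fold change of −0.10 ± 0.19 (SE; edgeR adjusted p = 0.999; 95% interval −0.52 to 0.32) became 0.030 without WT 2 and 0.039 without Zbp1-KO 2.

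Wnk1, the kinase, had equal means, 165 ± 25.5 CPM for WT and 165 ± 19.0 CPM for Zbp1-KO (mean ± SD, n = 2 libraries). The libraries measured 147 and 183 CPM in the WT pair, against 152 and 179 CPM in Zbp1-KO, so that replicate 2 was the higher library in each genotype. The log2 fold change was −0.0012 ± 0.19 (SE; edgeR adjusted p = 0.999; 95% interval −0.42 to 0.42). Its sign depended on the scaling, the filter, the block and the libraries used. The distal tubule makes a short Wnk1 transcript without the kinase part, and counts per gene do not separate it from the full-length form. GENCODE M21 lists 26 Wnk1 transcripts.

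**Figure D1:**
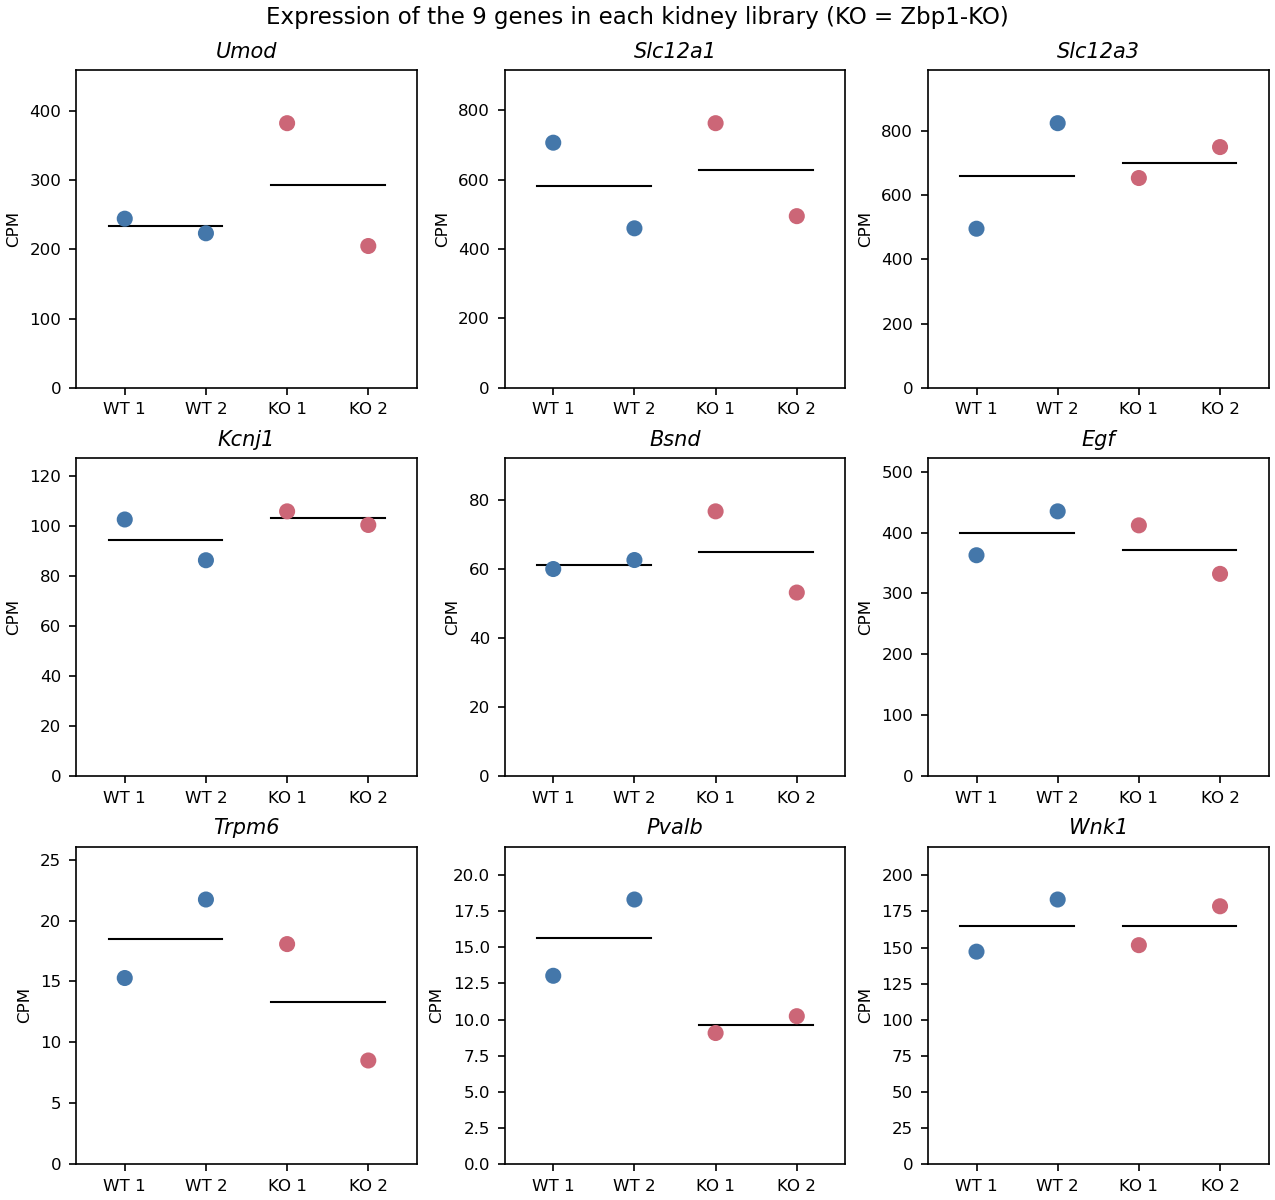
CPM (y axes, each from 0) of each of the 9 genes in the 4 libraries (x axes; WT in blue, Zbp1-KO in red), with black lines at the mean of each genotype. Only for Pvalb do both Zbp1-KO points (9.07 and 10.2) lie below both WT points (13.0 and 18.3), while for Umod the point of Zbp1-KO 1 (383) stands above the rest.

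Taken over the set, 0 of the 9 members were called at an adjusted p under 0.05 in edgeR, where 0.0134% of all tested genes (2 of 14908) were called. An unadjusted p under 0.05 was found for 1 member, and for 3.88% of all tested genes. Each of the other tests run, the exact and likelihood ratio tests of edgeR, DESeq2 and limma-voom, also called 0 members. The median log2 fold change of the members was 0.086, with 5 above 0 and 4 below, against a median of −0.0061 over all tested genes. For 7 of the 9 members the 95% interval stayed within 1 log2 unit, or a 2-fold change, in either direction, as it did for 48.0% of all tested genes. Trpm6 and Pvalb, the members with the fewest counts, had intervals that reached beyond a 2-fold lower level.

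**Figure D2:**
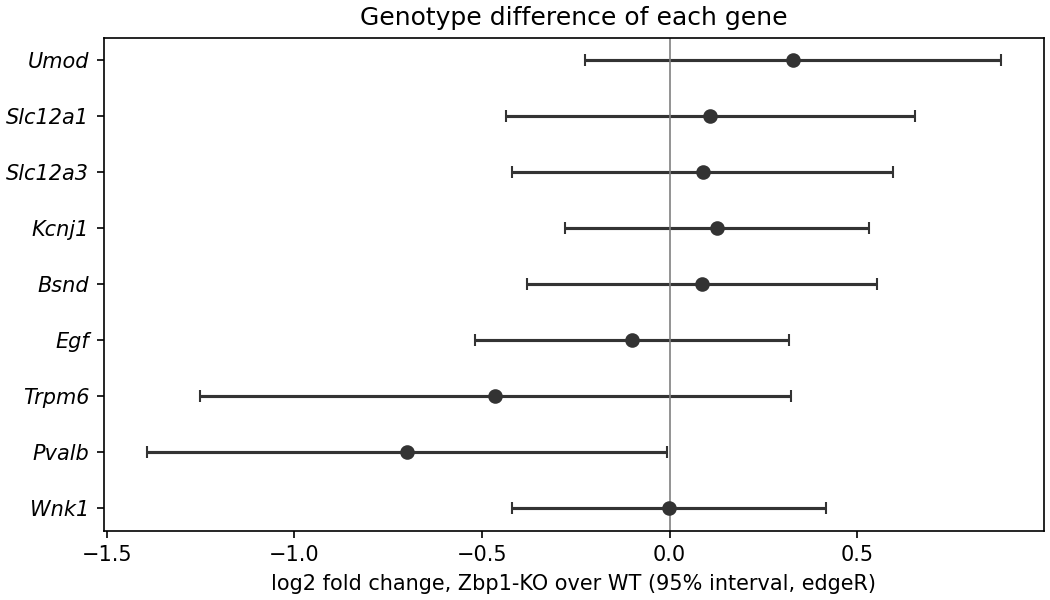
Log2 fold change of Zbp1-KO over WT for each gene (x axis; points) with its 95% interval from the edgeR quasi-likelihood fit (bars, n = 2 libraries per genotype). The intervals of all genes but Pvalb include 0, and that of Pvalb ends at −0.0055.

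The spread between libraries of 1 genotype was set against the genotype difference. The genotype difference was taken here as the difference of the mean log2 CPM of each genotype. For 8 of the 9 members, all but Pvalb, the larger of both replicate gaps exceeded it, as for 79.1% of all tested genes. The largest replicate gaps were between the Zbp1-KO libraries, with a log2 difference of 1.07 for Trpm6 and 0.90 for Umod, and between the WT libraries for Slc12a3, with −0.73. Zbp1-KO 1 was above Zbp1-KO 2 for Umod, Slc12a1, Kcnj1, Bsnd, Egf and Trpm6, and below it for Slc12a3, Pvalb and Wnk1.

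**Figure D3:**
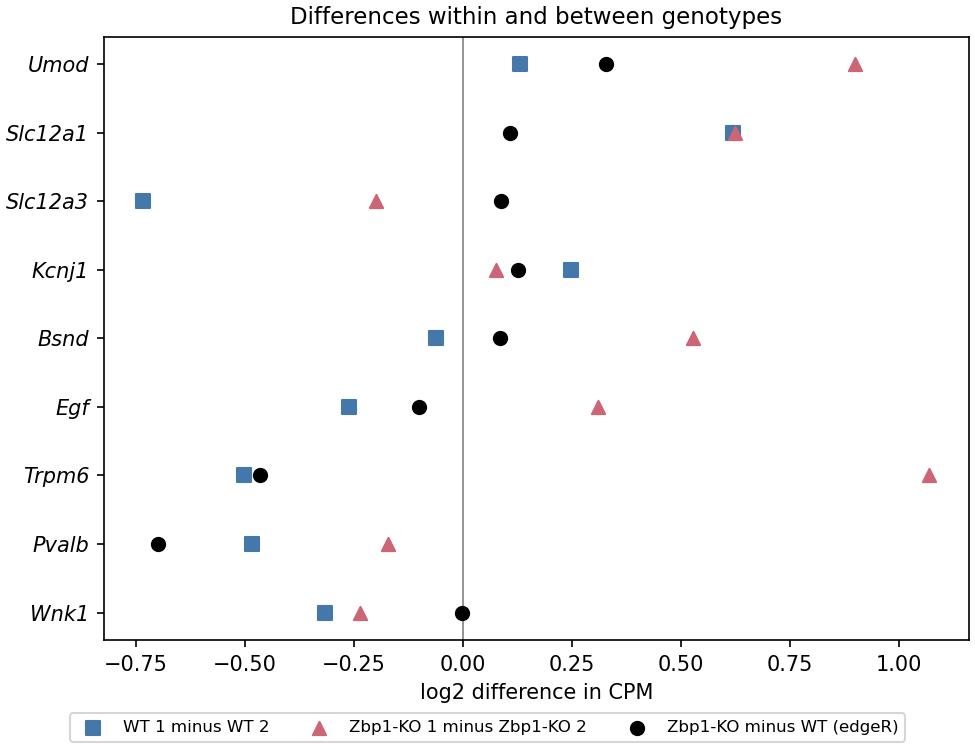
Log2 differences in CPM (x axis) for each gene. Blue squares are the gap between the WT libraries and red triangles the gap between the Zbp1-KO libraries. Black circles are the genotype difference, here the edgeR log2 fold change. Except for Pvalb (−0.70), at least 1 coloured symbol lies farther from 0 than the black circle.

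To ask whether the segments moved relative to each other, means of log2 CPM were compared in each library. The thick ascending limb mean held Umod, Slc12a1, Kcnj1 and Bsnd, and the distal mean Slc12a3, Trpm6, Pvalb and Egf. The broadly expressed Wnk1 was left out. Egf is also made in the thick ascending limb, so the means do not fully isolate the segments. The thick ascending limb mean was 7.50 and 7.26 in WT and 7.79 and 7.26 in Zbp1-KO. The distal mean was 6.28 and 6.78 in WT and 6.36 and 6.11 in Zbp1-KO. The difference of the means was 1.22 and 0.49 in WT and 1.43 and 1.15 in Zbp1-KO, so that WT 2 was the low library and WT 1 lay among the Zbp1-KO values. It was 0.44 higher on average in Zbp1-KO, with an exact two-sided permutation p of 0.667, where 0.333 is the smallest possible. The difference was 0.80 without WT 1 and 0.073 without WT 2.

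**Figure D4:**
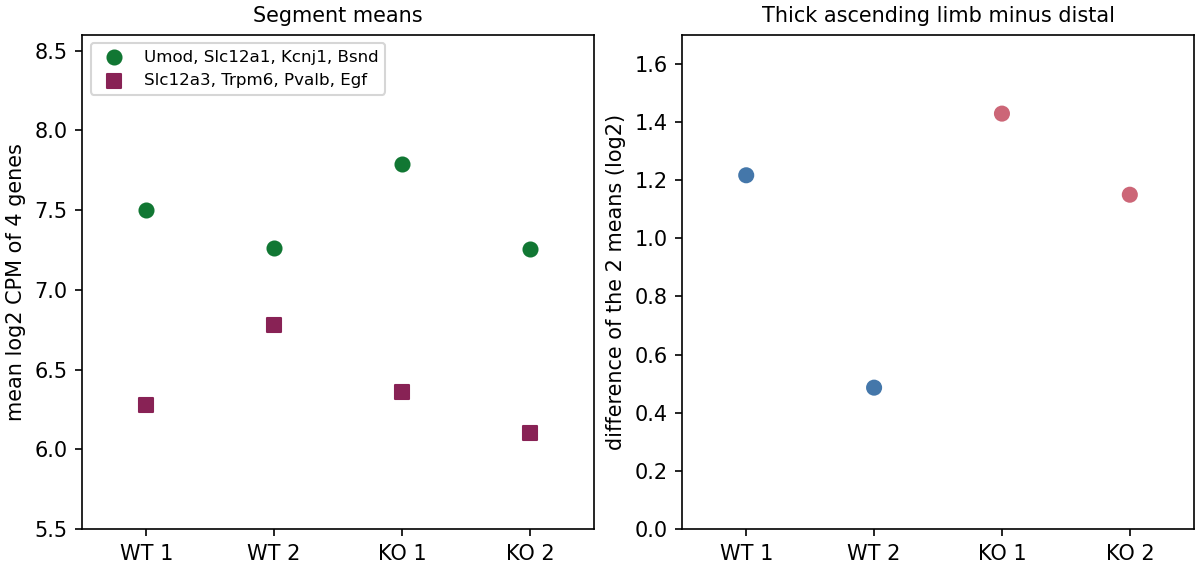
Left, mean log2 CPM (y axis) of 4 thick ascending limb genes (circles) and 4 distal genes (squares) in the 4 libraries. Right, the difference of these means in each library (WT in blue, Zbp1-KO in red), which is lowest in WT 2 (0.49) and highest in Zbp1-KO 1 (1.43).

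Other genes of these segments were then counted from fixed lists. Of 18 further genes of the thick ascending limb and macula densa, 16 were tested and 0 were called in edgeR, with 0 at an unadjusted p under 0.05, 8 above 0 and 8 below, and a median log2 fold change of 0.0056. Their values ran from −0.70 ± 0.60 (SE) for Car15 to 0.37 ± 0.27 for Kctd1. The macula densa gene Nos1 had 2 and 3 counts in the WT pair, against 0 in each Zbp1-KO library, too few to enter the test or to show a difference. Of 8 genes for the basolateral sodium pump and its companion channels, 0 were called or had an unadjusted p under 0.05, and the median was 0.072, from −0.11 ± 0.17 (SE) for Fxyd2, a pump subunit, to 0.42 ± 0.30 for Kcnj10, a potassium channel.

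Of 20 further genes of the distal convoluted and connecting tubule, 19 were tested and 0 were called in edgeR, with a median of −0.0056, 9 above 0 and 10 below. At an unadjusted p under 0.05, which 3.88% of all tested genes had in either direction, 0 were higher and 2 lower, Slc41a3 and Emx1. Here and in the lists that follow, genes named for an unadjusted p were chosen after their values were seen. Slc41a3, a magnesium transporter gene of low level, had 15 and 16 counts in the WT pair, against 0 and 1 in Zbp1-KO. Emx1, a transcription factor, measured 23.0 and 31.0 CPM in the WT pair, against 20.1 and 15.5 CPM in Zbp1-KO, with a log2 fold change of −0.59 ± 0.26 (SE; edgeR adjusted p = 0.999). Among genes of at least 1 CPM on average, Sall3 was the lowest at −1.86 ± 1.27 (SE) and the calcium channel gene Trpv5 the highest at 0.80 ± 0.71.

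Wnk1 acts through a cascade, and 15 further genes from a list on WNK and SPAK regulation were examined. The list included kinases, ubiquitin ligase parts and phosphatase subunits. None of the 15 was called in edgeR (6 above 0, 9 below, median −0.019). An unadjusted p under 0.05, which 3.88% of all tested genes had in either direction, was found for 2, both lower. These were Stk24, a kinase, with 23.2 and 26.9 CPM in the WT pair, against 12.9 and 15.3 CPM in Zbp1-KO, and Sgk1, an aldosterone-induced kinase, with 121 and 94.9 CPM in the WT pair, against 80.0 and 78.1 CPM in Zbp1-KO. Both had Zbp1-KO libraries below the WT libraries, as for 16.3% of all tested genes. Their log2 fold changes were −0.83 ± 0.26 and −0.45 ± 0.19 (SE; edgeR adjusted p = 0.999 for each). The highest value was that of Ppp3ca, a calcineurin subunit, at 0.19 ± 0.19 (SE).

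Of 17 transcription factors of the distal nephron, 0 were called or had an unadjusted p under 0.05 in edgeR, and the median was −0.033, from −0.24 ± 0.23 (SE) for Pax2 to 0.28 ± 0.23 for Irx3. Of 10 genes for uromodulin and EGF processing, relatives of Umod and the EGF receptor, 8 were tested and 0 were called or had an unadjusted p under 0.05. Their median was 0.090, from −0.19 ± 0.19 (SE) for the protease Prss8 to 0.98 ± 0.58 for Gp2, a relative of Umod, which measured 3.94 and 2.39 CPM in the WT pair, against 8.26 and 4.20 CPM in Zbp1-KO.

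The mean profile of the 9 members over the 4 libraries was lowest in Zbp1-KO 2 and highest in Zbp1-KO 1. Among 122 tested genes of the nephron lists, those with the profile most like it, by Pearson's r over 4 libraries, were the transcription factor Tfap2a (0.997), Stk39 (0.997), which encodes SPAK, and the transcription factor Gata3 (0.989). With 4 points this is a description only, and 0.221%, 0.268% and 0.825% of all tested genes had an r at least as high. Between pairs of members, r ran from −0.97 (Slc12a1 with Wnk1) to 0.95 (Egf with Trpm6). The mean was therefore not a profile that all members shared.

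**Figure D5:**
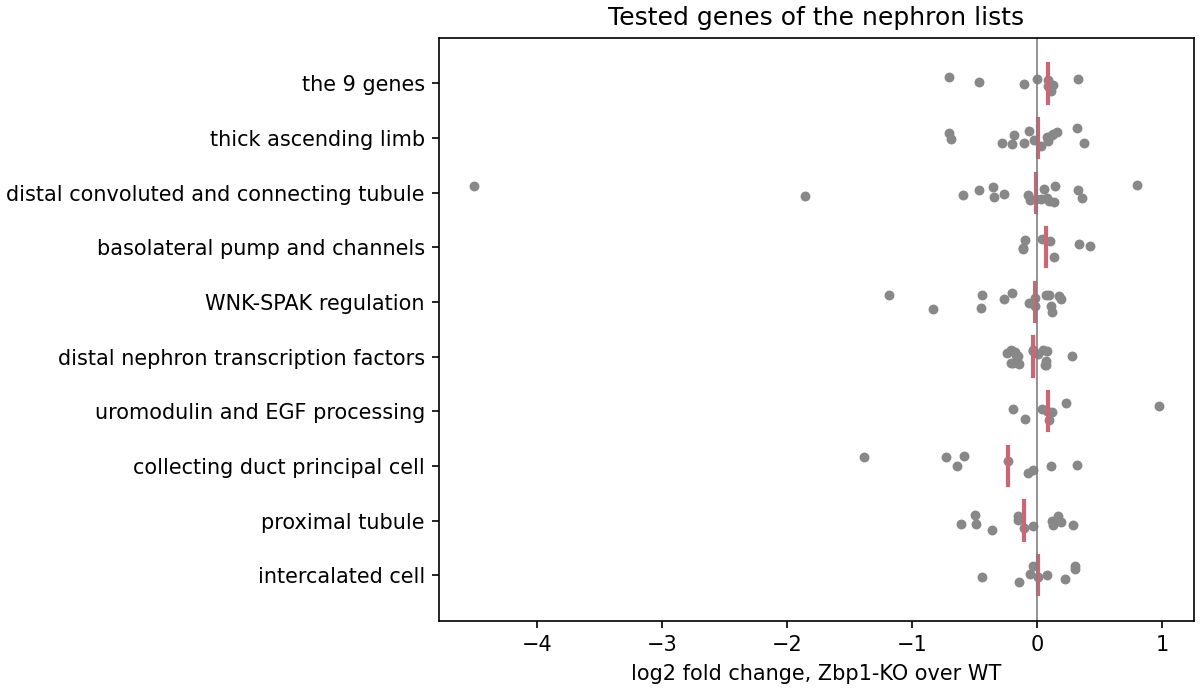
Log2 fold change of Zbp1-KO over WT (x axis) of each tested gene (grey points) in the lists of nephron genes (y axis), with the list median as a red bar and the scatter within a row added for legibility. The medians of the 9 genes and of the lists for their own segments lie between −0.033 and 0.090, and that of the principal cell list at −0.23.

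Neighbouring segments and other cell types were measured in the same fit. The collecting duct principal cell list had 9 tested genes, 0 called and a median of −0.23. At an unadjusted p under 0.05, which 3.88% of all tested genes had in either direction, 4 genes were lower. These were Aqp2, Aqp3, Scnn1b and Elf5, with log2 fold changes from −1.38 to −0.58. The lowest was Elf5 at −1.38 ± 0.31 (SE; edgeR adjusted p = 0.879) and the highest Hsd11b2 at 0.32 ± 0.23. The proximal tubule list (13 tested, 0 called, 1 lower at an unadjusted p under 0.05, Slc22a6) had a median of −0.11, from −0.61 for Slc5a2 to 0.29 for Slc22a7. The intercalated cell list (9 tested, 0 called) had a median of 0.0075, from −0.44 for Slc4a9 to 0.30 for Atp6v0d2. The thin limb and inner medulla list (11 tested, 0 called) had a median of −0.065, from −0.65 for Slc14a2 to 0.75 for Sptssb. Its summed level was lowest in Zbp1-KO 2, at 1078 CPM against 1417 to 1654 CPM in the other libraries, and Zbp1-KO 2 was also the lowest library for Umod, Bsnd, Egf and Trpm6. The part of the sampled region of the kidney in those values was not tested.

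Other lists had values that separated the genotypes, as those of Pvalb did. The 11 immediate-early genes, which respond within minutes to stress, had 0 called in edgeR but 10 lower at an unadjusted p under 0.05, with summed levels of 610.1 and 236 CPM in the WT pair, against 131 and 138 CPM in Zbp1-KO, from −3.15 for Fos to −0.89 for Atf3. The fat list had 8 tested genes, all above 0, of which 1 was called higher, Cfd (complement factor D; log2 fold change 2.20 ± 0.23 SE, edgeR adjusted p = 0.00889), with summed levels of 92.2 and 125 CPM in the WT pair, against 279 and 254 CPM in Zbp1-KO. Of its genes of at least 1 CPM, Fabp4 was lowest at 0.51 and Retn highest at 2.38. The T cell list had 9 tested genes, all above 0 and 0 called, from 0.53 for Lck to 2.81 for Cd2, with summed levels of 20.7 and 17.0 CPM in the WT pair, against 39.7 and 29.5 CPM in Zbp1-KO. The part of these lists in the level of Pvalb was not tested.

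Lists for podocytes, macrophages, tubular injury and muscle had no called gene. The podocyte list (8 tested) had a median of 0.32, with Wt1 highest at 0.76, and Synpo was its 1 gene with an unadjusted p under 0.05, on the higher side. The macrophage list (10 tested) had a median of 0.16, from −0.25 for Itgam to 0.54 for Adgre1. Tubular injury genes, of which 10 were tested, had a median of −0.13, from −1.34 for Timp1 to 0.27 for Vcam1, with 0 at an unadjusted p under 0.05 and summed levels that overlapped between genotypes, 762 to 874 CPM in WT, against 712 to 837 CPM in Zbp1-KO. Of the muscle list, 2 genes were tested, Tnni2 at 0.93 and Mylpf at 1.72.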

How the data were processed

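Kidney polyA RNA libraries, 2 WT and 2 Zbp1-KO, were analysed, grouped by the sample titles. The authors trimmed paired reads with Trimmomatic, aligned them with HISAT2 to mm10 (per the submitters' processing notes) and used featureCounts to count uniquely mapped pairs. What they deposited are raw counts, as whole numbers for each Ensembl gene. Versions, annotation release and strand setting are not given in the sources used here.

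IDs were matched to GENCODE M21 (GRCm38, the same assembly), with 37 of 54532 unmatched. Counts were tested in edgeR 4.0.16 (R 4.3.3) by the quasi-likelihood F test, two-sided, after filterByExpr (minimum count 10, total 15) and TMM, with genotype as the only term and Benjamini-Hochberg adjustment over all tested genes. SE was taken as the size of the log2 fold change over the root of F, and fitted values used a prior count of 0.125 (log2 CPM: 2). Depth is in the library totals given with the data. The test was checked on simulated counts. Alternatives were RLE and upper quartile factors, other filters, the replicate block, the exact and likelihood ratio tests, DESeq2 1.42.0, limma-voom (limma 3.58.1), leaving out mitochondrially encoded genes, and leaving out each library. Members and lists were chosen with earlier results of these data known. Named were all members, the highest and lowest gene of each list with a mean of at least 1 CPM, called genes, Zbp1 and Cfd, and the 3 genes most like the members' profile. A few genes are in 2 lists. The lowest gene of 1 list is not reported here. Any further gene was picked with its values in view.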

Additional observations from a re-analysis of the deposited data

How the results depend on the processing

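Members called stayed at 0 in all 10 alternatives with 4 libraries, with adjusted p-values of at least 0.962, and of at least 0.241 with 1 library left out. Genes called overall were 2, and 41 with all genes of at least 1 count, 11 with the replicate block, 14 with the exact test, 26 with the likelihood ratio test, 9 with DESeq2, 8 with limma-voom and 4 without mitochondrially encoded genes. The cause was not tested, except that the first admits more genes. The correlation of deviations of same-numbered libraries was 0.0040. With 2 libraries per genotype, this single value cannot decide whether some genes varied together in them. The members' median was 0.062 with the replicate block, and from −0.21 to 0.039 with 1 library left out, below 0 without WT 1 (−0.16) or Zbp1-KO 1. Of 126 values of single members under alternatives, 13 changed sign, none of them called. With 4 libraries, those were values of Wnk1, 0.0017 (upper quartile factors), 0.0010 (mean of at least 1 CPM) and 0.0031 (replicate block). With 1 library left out, values ran from −0.20 to 0.70 for Umod, −0.24 to 0.44 for Slc12a1, −0.24 to 0.50 for Slc12a3, −0.21 to 0.32 for Bsnd, −0.27 to 0.039 for Egf and −0.16 to 0.16 for Wnk1. Pvalb, Trpm6 and Kcnj1 kept their sign. With 4 libraries, the unadjusted p of Pvalb exceeded 0.05 under the mean CPM filter, the block, the exact test, DESeq2 and limma-voom.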
